A study of Mus musculus with 10 samples.

Results

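Regions enriched for Dlx2 in mouse cortex before birth, at embryonic day 16 (E16), were compared with those found after birth, at postnatal day 3 (P3). The members are the regions of the 2 deposited cortex lists on chromosomes 1 to 19 and X: 6307 at E16 and 2116 at P3, 8423 of the 25552 regions that the 5 lists of the series hold on these chromosomes. A region was called kept when it overlapped a region of the other age by at least 1 bp, and otherwise E16-only or P3-only. The overlaps formed 110 pairs, made of 107 E16 regions and 109 P3 regions, which left 6200 E16-only and 2007 P3-only regions.

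The series mapped Dlx2 on chromatin by ChIP-seq, in which DNA bound by a protein is pulled down with an antibody and sequenced. It covers 3 brain tissues, with 5 immunoprecipitated libraries and 5 inputs. The E16 and P3 cortex groups have 1 library each, so differences between ages have no replicate check and carry no p-value. Per the labels, tissue was fixed in 1.5% formaldehyde, its chromatin sheared to 300 to 1000 bp and 5 µg of Dlx2 antibody added, and the labels give neither the genotype, the strain, the number of animals nor any treatment for either cortex group. The E16 basal ganglia list and the E16 and P3 olfactory bulb lists are used below only to describe the cortex regions.

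Dlx2 is a homeodomain transcription factor made in the progenitors and young neurons of the ventral forebrain, from which cortical GABAergic interneurons migrate into the cortex. It works with Dlx1, Dlx5 and Dlx6, which lie in neighbouring pairs and regulate one another, and it activates genes of GABA synthesis and migration while holding back other fates. Homeodomains read short AT-rich sequences with the core TAATT. Cells that make Dlx2 are a minority in the cortex, where most neurons are glutamatergic and arise locally.

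The E16 list covered 5872 kb, with a median width of 569 bp, and the P3 list 951 kb, with a median width of 395 bp. Fold enrichment, the authors' ratio of signal over local background at the summit (the highest point of a region), had a median of 5.01 at E16 and 4.47 at P3. Read depth is unknown, and a region missing from a list was not called there, which does not show that Dlx2 was not bound. Fewer cells with Dlx2 and less binding per cell cannot be told apart in whole tissue. The region names of all 6333 deposited E16 regions carry a mark for removal of duplicate reads, and 0 of the 2139 P3 names do. The naming pattern of the E16 cortex list is that of the E16 basal ganglia list, and the pattern of the P3 cortex list is that of the E16 olfactory bulb list. The labels name no batch, and age cannot be told apart from this difference in how the lists were named and may have been made. Intervals below are exact Clopper-Pearson 95% intervals and cover counting error only.

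Few regions were shared between the ages. Kept regions were 1.70% of the E16 list (interval 1.39 to 2.05%) and 5.15% of the P3 list (4.25 to 6.18%). With both lists cut to their 2116 strongest regions by −log10 q, the kept share of the P3 list was 1.94%, with 41 regions. The summits of a pair lay a median of 117 bp apart, within 100 bp in 46 pairs, within 200 bp in 78 and over 500 bp apart in 16. Regions of high significance were not kept more often at E16: with the list cut by −log10 q into 4 equal classes, the kept share was 1.59% in the strongest class and 1.59% in the weakest. At P3 it was 7.37% (5.29 to 9.94%) in the strongest class and 3.78% (2.32 to 5.78%) in the weakest, and the intervals overlap. None of the 50 strongest regions of either list was kept. The best rank of a kept region was 60 at E16 and 86 at P3. Just outside the rule, the closest P3-only regions included 1 that lay 14 bp from an E16 region in Ttc28, with a fold enrichment of 3.17, and 1 that lay 115 bp from an E16 region, 53082 bp from Chd2, with 3.61.

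The sequences printed here lie before the starts of the antisense RNA Dlx6os1, also called Evf2. This non-coding RNA is read through the Dlx5 and Dlx6 locus. The sequences were taken from the RefSeq promoter table of GRCm38.p6, the build that the deposited lists call mm10. Printed are the 250 bases before each start, 5′ to 3′ on the minus strand, with every TAATT and its reverse complement AATTA in capitals. The first, at chr6:6869534-6869783, holds the P3 summit of a pair, and the second, at chr6:6861684-6861933, holds the P3 summit of another.

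Dlx6os1 start inside the kept region near Dlx6: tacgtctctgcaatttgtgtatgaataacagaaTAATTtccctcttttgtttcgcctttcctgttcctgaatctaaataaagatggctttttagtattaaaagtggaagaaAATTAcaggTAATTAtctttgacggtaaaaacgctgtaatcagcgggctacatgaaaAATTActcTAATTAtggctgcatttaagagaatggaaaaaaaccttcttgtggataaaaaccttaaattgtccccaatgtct
Dlx6os1 start inside the stronger P3 region: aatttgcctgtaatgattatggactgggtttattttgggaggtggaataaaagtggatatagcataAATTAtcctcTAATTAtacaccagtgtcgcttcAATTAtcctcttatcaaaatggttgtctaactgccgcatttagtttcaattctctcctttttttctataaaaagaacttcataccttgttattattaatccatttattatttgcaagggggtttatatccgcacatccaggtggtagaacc

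The first stretch holds 5 separate capital runs and 7 matches, since the palindrome TAATTA matches on both strands and occurs 2 times. The second holds 3 runs and 4 matches. Of all 32619 promoter windows of the table, each 300 bases long with 50 bases after the start, 3.9% hold at least 3 matches. GC content was 35.7% in the first window and 35.3% in the second, against a median of 53.0% in all windows. Of the 5 windows with a kept P3 summit, only these 2 reach 3 matches. Those of 4930488L21Rik, Wbp1 and Gm15860 hold 1, 0 and 0. Most kept P3 summits, 73.1%, lay over 10 kb from a start, chromosome 18 left out. The P3 summits of the printed stretches lay 209 and 208 bases before the Dlx6os1 starts, and the E16 summit of the first pair lay 5 bases before its start.

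Around Dlx5 and Dlx6, which encode homeodomain factors downstream of Dlx1 and Dlx2, the E16 cortex had 12 regions and the P3 cortex 4, and 2 pairs were kept. The kept pair at the first Dlx6os1 start, chr6:6869298-6869978 at E16 and chr6:6869305-6869952 at P3, had fold enrichments of 6.59 and 5.02. In the other, chr6:6859797-6861788 at E16 and chr6:6861595-6862369 at P3, the values were 8.67 and 9.20 but the summits were 1613 bp apart. Both pairs were also listed in the E16 basal ganglia and in the olfactory bulb at both ages. The strongest E16 region of the locus was a different one, chr6:6877285-6880339 over the body of Dlx5, with a fold enrichment of 10.6 and no P3 region.

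Dlx1 and Dlx2 themselves were surrounded by 8 E16 regions and 5 P3 regions, with 4 kept pairs. A pair between the genes, chr2:71537894-71538564 at E16, had fold enrichments of 5.86 at E16 and 6.68 at P3, with summits 8 bp apart at 71538273 and 71538265. The pair next to it, chr2:71535950-71536257 at E16, had 4.22 and 5.77. Another was in the neighbouring gene Metap1d, a mitochondrial aminopeptidase gene, with 6.17 and 5.96. Over the body of Dlx1 a wide E16 region of 3331 bp met a P3 region of 329 bp at its edge, with 7.70 and 3.60. All 4 pairs were listed in the E16 basal ganglia and olfactory bulb, and 0 in the P3 olfactory bulb. The strongest region of the locus, over the body of Dlx2 at E16 (chr2:71542567-71545834, fold enrichment 12.8), was E16-only. The P3-only region of the locus lay at the boundary of Dlx1, with 4.33.

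The other kept pairs with the lowest summed rank included several near regulators of neuronal development. The lowest sum belonged to a wide E16 region in the lncRNA C130071C03Rik, 70.9 kb from Mef2c, an activity-dependent MADS-box factor. Its fold enrichment was 23.2 at E16 and 11.2 in the P3 region, but the summits were 3713 bp apart. The E16 region spans the gene of the microRNA miR-9-2, which no P3 region overlapped. A further P3 region, of 3.65, met the same E16 region, with summits 2022 bp apart. The next pair lay in Gm31740, with 25.5 and 12.3, and a neighbouring pair lay in Mir9-3hg, the host gene of miR-9-3, with 31.6 and 4.23. Auts2, a gene linked to neurodevelopmental disorders, held 2 kept pairs, with 9.73 and 7.91 in the first and 8.46 and 5.96 in the second. Pairs also lay in Mtss1, which shapes the membrane and actin (8.89 and 5.47), Ptprs, a synaptic receptor phosphatase (18.7 and 4.51), Tcf4, a basic helix-loop-helix factor of neurons (10.4 and 4.90), and 16.4 kb from Lmo1, a LIM-only cofactor (7.44 and 11.6). The summits were 3702 bp apart in the Mir9-3hg pair, 2322 bp in Ptprs and 1928 bp in Tcf4. They were within 144 bp in the Auts2, Mtss1 and Lmo1 pairs. Kept regions with a summit in a promoter window were few: at E16 Gabpb2, a subunit of the factor GABP (11.5), and Dlx6os1, and at P3 both Dlx6os1 starts, 4930488L21Rik (6.78), Wbp1 (4.56) and Gm15860 (3.25). A further E16 region of low summed rank, in the ribosomal RNA pseudogene Rn18s-rs5, met 3 P3 regions at fold enrichments between 1.56 and 1.83, the lowest of the pairs named.

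Kept regions were mostly regions found in the other tissues as well. Of the 107 kept E16 regions, 96.3% (90.7 to 99%) overlapped an E16 basal ganglia region, against 60.8% (59.6 to 62.1%) of E16-only regions and 26.8% (24.9 to 28.8%) of P3-only regions. The E16 olfactory bulb list held 60.7% (50.8 to 70.0%) of the kept regions, 1.27% of the E16-only regions and 11.8% of the P3-only regions. The P3 olfactory bulb list held 30.8%, 0.516% and 7.62%. The 3 classes did not overlap in their intervals for any of these lists. The lists hold 14732, 1665 and 732 regions, in the order given, so shares cannot be compared between lists. The E16 cortex list shares its naming pattern with the basal ganglia list, and the P3 cortex list with the E16 olfactory bulb list. The shares of the classes cannot be told apart from this difference. Among the pairs, 32 were present in all 5 lists. They included the pairs at Dlx6os1, Pnoc (the gene of the neuropeptide precursor prepronociceptin), 1 of the 2 in Zeb2 (a factor of interneuron migration) and the first of Auts2. In no list other than the cortex lists were 39.1% of the E16-only and 67.9% of the P3-only regions. The basal ganglia share depended on list length and width: with every list cut to 2116 regions at most, 31.8% of the E16-only regions were listed there, 35.3% without regions wider than 1 kb, and 38.2% with summits within 200 bp in place of overlap.

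**Figure D1:**
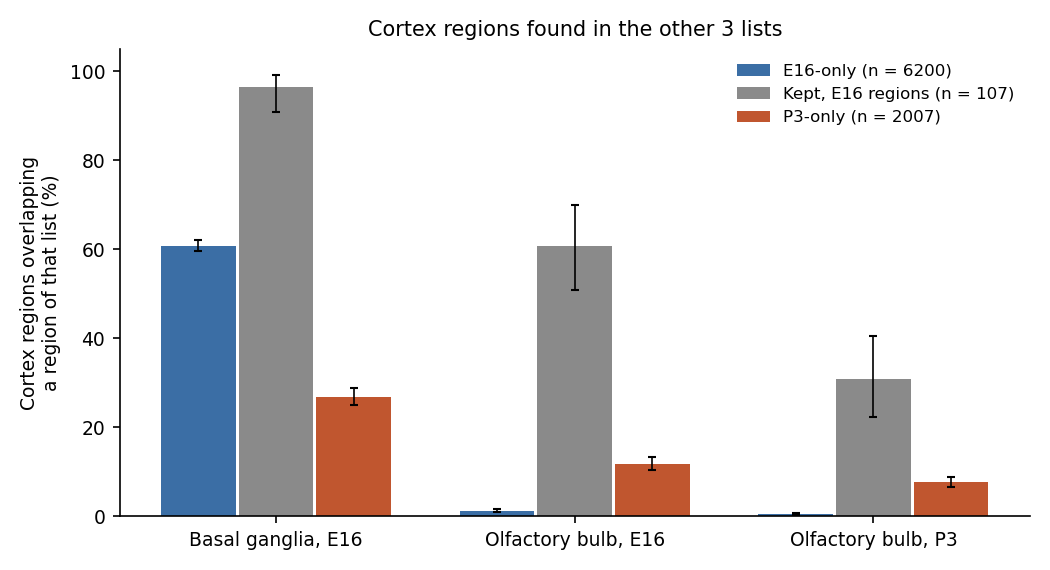
Share of E16-only, kept (counted at E16) and P3-only cortex regions that overlap a region of the E16 basal ganglia, E16 olfactory bulb or P3 olfactory bulb list, in percent, with exact 95% intervals for counting error as bars. Within each of the 3 lists the kept regions are highest, at 96.3%, 60.7% and 30.8%. The lists hold 14732, 1665 and 732 regions, so shares cannot be compared between lists.

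The strongest E16-only and P3-only regions differed in width and in the other lists that held them. All 12 strongest E16-only regions were wider than 1 kb (median width 4991 bp), all 12 were listed in the basal ganglia and 11 had their summit in a protein-coding gene. They included regions in Mex3a (fold enrichment 71.9) and Mex3b (54.5), genes of proteins that bind RNA, Pou3f3, a POU factor of upper-layer neurons (63.2), and Tbr1, a T-box factor of deep-layer glutamatergic neurons (48.5). Others were in Fam171a2 (64.3), Zfp316 (62.8), Dchs1, a protocadherin (59.1), Mast1, a microtubule-associated kinase (47.9), Sema6c, a semaphorin (43.2), 2700081O15Rik (46.2) and the lncRNA Mir9-3hg (63.0). Of the 12 strongest P3-only regions, 0 were listed in the basal ganglia, 11 in the E16 olfactory bulb and 10 in the P3 olfactory bulb. Most were thus listed at E16, though not in the cortex. The P3 cortex list shares its naming pattern with the E16 olfactory bulb list, and the E16 cortex list with the basal ganglia list. Age cannot be told apart from this difference here. These 12 P3-only regions had a median width of 1258 bp. They lay 42.1 kb from Sema6a (47.5), in Smad2, a mediator of TGF-beta signalling (49.1), in Grip1, an AMPA receptor scaffold (43.5), in Slc38a9, a lysosomal amino acid sensor (39.7), in Kcnk1, a potassium channel (31.9), in Zbtb4 (30.1), D7Ertd443e (29.8), Cdk14 (24.5), Fbxl13 (25.4) and Cenpo (14.9), 9.38 kb from Sowahb (39.3) and 109.2 kb from Arrdc4 in Gm34664 (23.7).

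E16-only regions sat inside genes, and P3-only regions far more often between them. A summit within a protein-coding gene was found for 86.6% (85.8 to 87.5%) of E16-only, 57.0% (47.1 to 66.5%) of kept E16 and 45.6% (43.4 to 47.8%) of P3-only regions. Summits over 100 kb from any protein-coding gene were 1.76%, 21.5% and 19.9%, respectively. A width over 1 kb was found for 25.2% of E16-only and 1.84% of P3-only regions. Within 1 kb of a boundary of any gene lay 22.1% (21.1 to 23.2%) of E16-only and 18.5% (16.8 to 20.3%) of P3-only summits, and within 2 kb 36.9% and 23.8%. For start sites alone the order was the reverse, with 8.33% (7.64 to 9.06%) of E16-only and 13.7% (12.2 to 15.3%) of P3-only summits within 1 kb, chromosome 18 left out because the promoter table has no windows there.

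Within genes, the 2 classes leaned to opposite ends. For 4106 E16-only summits in genes whose strand the promoter table gives, 64.4% (62.9 to 65.9%) lay nearer the 3′ than the 5′ end. With each gene cut into 10 equal parts, 24.2% lay in the last part and 8.30% in the first. For 717 P3-only summits the share nearer the 3′ end was 42.3% (38.6 to 46.0%), with 17.9% in the first part and 6.28% in the last. The last 1 kb of the gene held 10.7% of the E16-only and 0.837% of the P3-only summits, and the first 1 kb held 3.34% and 9.34%. The genes had a median length of 44.1 kb for E16-only and 159 kb for P3-only summits. A stretch of 1 kb is thus a smaller part of the P3-only genes, and a lower share is expected there under an even spread. For the 46 kept E16 summits in such genes the 3′ share was 60.9% (45.4 to 74.9%), an interval that includes an even split.

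**Figure D2:**
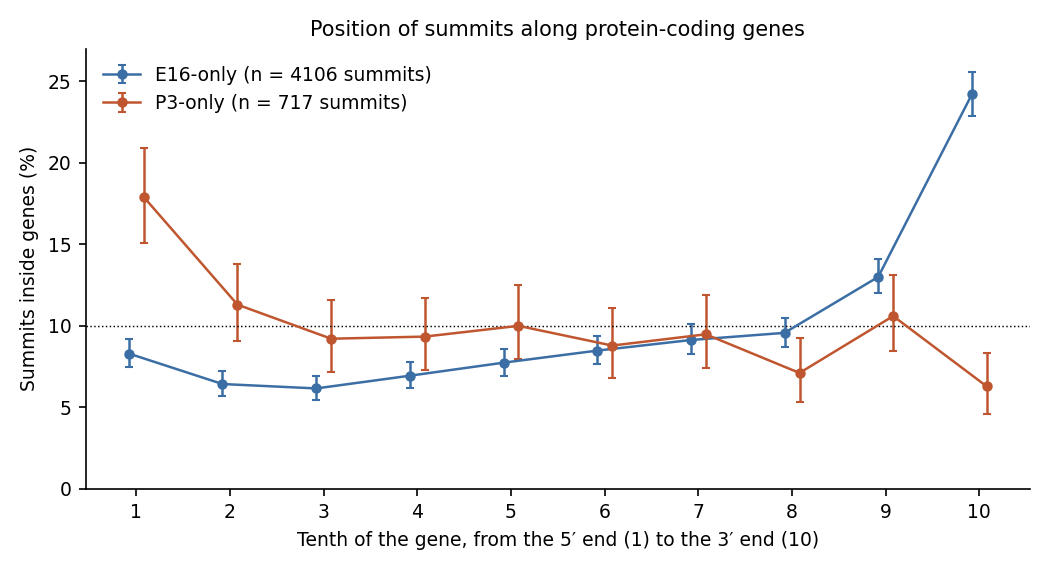
Position of E16-only (4106) and P3-only (717) summits along protein-coding genes, as the percentage of summits in each of 10 equal parts of the gene from the 5′ end (1) to the 3′ end (10), with exact 95% intervals for counting error. The dotted line marks an even spread over the 10 parts. E16-only summits reach 24.2% in the last part, and P3-only summits are highest in the first, at 17.9%.

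Promoters were also read for motifs. A promoter window held the summit of 84 E16-only regions (87 windows) and of 153 P3-only regions (177 windows, since neighbouring or alternative starts can share a region). The motifs searched on both strands were TAATT, its palindrome TAATTA, the octamer ATGCAAAT of POU factors, CCAAT (the box bound by NF-Y), GGGCGG (a GC box), the E-boxes CAGCTG and CAGATG, and TGACAG of TALE homeodomains. TAATT contains no other motif of the list, and TAATTA contains TAATT.

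The CCAAT box stood in 66.1% (58.6 to 73.0%) of P3-only windows, 35.6% (25.6 to 46.6%) of E16-only windows and 37.6% of all windows. Counted by region, 100 of the 153 P3-only regions had one. With lists of equal length the E16-only share was 22.6%, from 7 windows. At least 3 copies were present in 32.8% (25.9 to 40.2%) of P3-only windows, 3.45% of E16-only windows and 3.37% of all. GGGCGG stood in 59.3% (51.7 to 66.6%) of P3-only, 43.7% (33.1 to 54.7%) of E16-only and 35.9% of all windows. TAATT stood in 30.5% (23.8 to 37.9%), 16.1% (9.09 to 25.5%) and 27%. The median GC content was 59.7% in P3-only windows, 60.0% in E16-only windows and 53.0% in all, so the medians of both classes were alike. The E-box CAGCTG was in 9.60% (5.70 to 14.9%) of P3-only, 23.0% (14.6 to 33.2%) of E16-only and 16.4% of all windows, and CAGATG in 10.2% (6.14 to 15.6%), 21.8% (13.7 to 32.0%) and 17.1%.

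**Figure D3:**
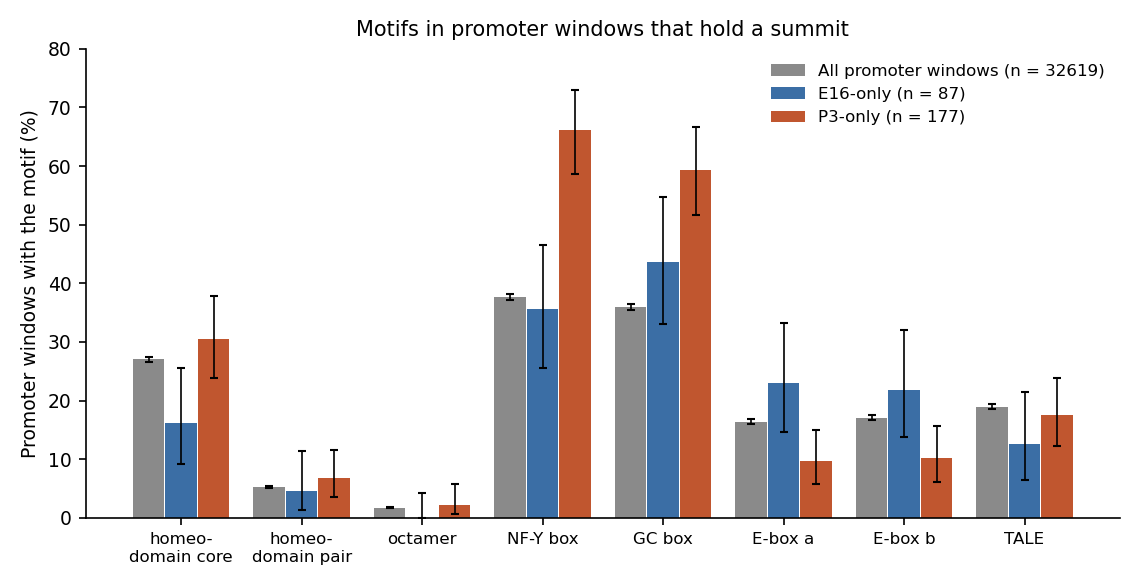
Share of 300-base promoter windows holding each motif, in percent, for all windows and for those with an E16-only or a P3-only summit, with exact 95% intervals. From left, the motifs are the TAATT core, its palindrome, the octamer, the CCAAT box (NF-Y), the GC box, both E-boxes and the TALE site. P3-only windows stand apart at the CCAAT box, with 66.1%.

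Examples of windows rich in CCAAT or with TAATT follow. The first 3 stretches below are 250 bases before the starts of genes with a P3-only summit, with CCAAT and its reverse complement ATTGG in capitals. Dolpp1 encodes an enzyme of dolichol recycling (chr2:30392004-30392253, plus strand), Arntl the clock factor also called Bmal1 (chr7:113207215-113207464, plus strand) and Ska2 a kinetochore protein (chr11:87109011-87109260, plus strand). The last 2 carry the homeodomain core in capitals instead. Vldlr is a reelin receptor of migrating neurons with a P3-only summit (chr19:27216234-27216483, plus strand), and Nfix a nuclear factor of progenitors with an E16-only summit (chr8:84780083-84780332, minus strand).

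Dolpp1: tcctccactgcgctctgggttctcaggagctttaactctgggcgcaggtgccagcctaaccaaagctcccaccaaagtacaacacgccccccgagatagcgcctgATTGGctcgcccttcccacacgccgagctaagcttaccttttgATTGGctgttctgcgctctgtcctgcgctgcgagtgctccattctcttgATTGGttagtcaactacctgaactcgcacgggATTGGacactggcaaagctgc
Arntl: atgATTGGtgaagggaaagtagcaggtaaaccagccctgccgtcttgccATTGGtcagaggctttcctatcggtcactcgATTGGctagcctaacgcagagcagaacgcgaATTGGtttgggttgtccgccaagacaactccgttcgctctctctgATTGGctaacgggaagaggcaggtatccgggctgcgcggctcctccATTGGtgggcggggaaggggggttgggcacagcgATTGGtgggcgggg
Ska2: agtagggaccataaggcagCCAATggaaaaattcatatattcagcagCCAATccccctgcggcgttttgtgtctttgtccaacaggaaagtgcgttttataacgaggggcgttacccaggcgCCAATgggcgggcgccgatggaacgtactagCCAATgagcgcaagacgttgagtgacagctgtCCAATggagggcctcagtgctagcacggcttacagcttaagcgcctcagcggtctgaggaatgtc
Vldlr: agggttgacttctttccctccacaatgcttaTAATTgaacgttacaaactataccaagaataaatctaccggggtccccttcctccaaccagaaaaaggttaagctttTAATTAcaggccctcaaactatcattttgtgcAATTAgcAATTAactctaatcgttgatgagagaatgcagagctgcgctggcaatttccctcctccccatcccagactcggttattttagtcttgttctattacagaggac
Nfix: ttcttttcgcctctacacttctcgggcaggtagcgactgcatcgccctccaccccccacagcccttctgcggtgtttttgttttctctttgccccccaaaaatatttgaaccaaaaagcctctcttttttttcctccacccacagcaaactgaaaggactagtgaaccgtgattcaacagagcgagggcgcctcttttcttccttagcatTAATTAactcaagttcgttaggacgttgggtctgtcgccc

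The stretches hold 4 CCAAT boxes before Dolpp1, 7 before Arntl and 5 before Ska2, and 0 TAATT in the 3 windows. The fold enrichment of the P3 regions was 8.63, 7.14 and 6.85. Vldlr has 4 capital runs, a P3 fold enrichment of 9.20 and a summit 60 bases before its start. Nfix has 1, a palindrome, within an E16-only region of fold enrichment 17.0 whose summit lay 160 bases before the start. These genes were chosen after their values were seen, among the stronger regions over starts.

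Sharing was also counted by gene, a wider target than a region, so the gene and region shares cannot be compared directly. Of 21627 protein-coding genes, 3722 (17.2%) had an E16 summit and 1331 (6.15%) a P3 summit in the body or within 10 kb of it. Both ages had one at 385 genes (1.78% of all genes, 28.9% of the P3 genes and 10.3% of the E16 genes). The 28.9% stands beside the 17.2% of all genes occupied at E16. Only 70 of these had a kept region, and 315 were occupied at other places. The count was 196 with gene bodies alone, 1155 with 50 kb on each side and 233 with lists of equal length. P3 genes were long, with a median of 64.9 kb against 18.8 kb at E16 and 17.3 kb for all genes. With genes cut into 5 classes of length, 20.1% of the longest class were occupied at E16 and 16% at P3, and 11.9% and 1.94% of the shortest. The part of gene length in the list counts below was not tested.

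Among genes occupied at both ages without a kept region, the lowest summed rank belonged to Ski, a repressor of TGF-beta signalling, with fold enrichments of 20.1 at E16 and 7.22 at P3 and summits 1.45 kb apart. Crat and Dolpp1, which share the same regions, followed with 18.03 and 8.63 and summits 7.51 kb apart. In Tnpo1, a nuclear import receptor, the closest summits were 4.53 kb apart, and in Celf2, an RNA-binding protein, 6.16 kb. Pcca, an enzyme of propionate breakdown, had its closest summits 389.9 kb apart. The others were Gm33099, Acin1, Arhgap23 and Cttnbp2nl, with closest distances between 5.08 and 23.2 kb.

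Summits clustered in single genes at E16 and hardly at P3. Tcf4 had 88 E16-only summits, and Nfib 48, Gse1 37, Ttc28 36, Tnrc18 31, Meis2 30 and Zeb2 28. Bcl11a and Nfix had 24 each. At P3 the 10 genes with the most E16-only summits had between 0 and 3 summits. The highest P3-only counts were 6 in Tex14, where small nuclear RNA genes lie, 5 in Dlg2, a postsynaptic scaffold gene of 1970 kb, and 4 each in Asap1, Camta1, Celf2, D430041D05Rik, Erbb4, Lsamp and Wdr95, with 3 in Ano6. At least 2 summits were found for 1901 genes at E16 and 156 at P3.

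Gene lists of the forebrain lineages differed between the ages. Of the 6 Dlx genes, Dlx1, Dlx2, Dlx5 and Dlx6 were occupied at both ages with a kept region, and Dlx3 and Dlx4 at neither. Neighbours share regions within the 10 kb flank, so these genes are not separate observations. The 2 kept pairs of Dlx2 are also counted for Dlx1, and the 1 of Dlx5 also for Dlx6. Of 30 GABAergic lineage transcription factors, 15 were occupied at E16 and 8 at P3, set beside 17.2% and 6.15% of all genes, with 5 at both, among them Sp9, Npas3 and Zeb2. Nr2f1, a nuclear receptor of cortical area identity, had 7 E16 summits with a best fold enrichment of 48.7, and Lhx6, the LIM factor of interneurons from the medial ganglionic eminence, had 7 with 8.46; neither had a P3 summit. At P3 alone were Prox1 (5.59), Npas1 (5.05) and Pbx3 (8.30). Nkx2-1, Gsx2 and Isl1, which act in ventral progenitors, were without a summit at either age.

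GABA synthesis and transport genes were occupied at E16. Gad1 had 4 summits (best fold enrichment 8.22), Gad2 had 2 (6.30) and Slc32a1, the vesicular GABA transporter, had 4 (12.6). None of these had a P3 summit, and of the 7 genes of the list only the transporter gene Slc6a11 had one, 5.22 kb outside the gene (6.68). The interneuron subtype list had 2 of 20 genes at E16 and 3 at P3 (10% and 15%), beside 17.2% and 6.15% of all genes. Pnoc was kept (5.00 and 3.65), Nos1 was E16 alone, and Reln and Adarb2 were P3 alone.

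Genes of the glutamatergic lineage made up the most occupied list at E16, with 21 of 23 genes (91.3%), and 2 (8.70%) at P3. Of all protein-coding genes, 17.2% were occupied at E16 and 6.15% at P3, so the P3 count was near the share of all genes. Best fold enrichments at E16 were 49.1 at Neurod2, 48.5 at Tbr1, 34.0 at Fezf2, 33.1 at Lhx2, 21.4 at Bcl11b, 19.7 at Emx1 and 17.98 at Pax6, which specify cortical progenitors and layers. Neurog1 and Rorb had none. Sox5, a factor of deep-layer neurons, was 1 of the 2 at P3, with 4 summits and a best fold enrichment of 4.69 there, and 7 summits and 5.67 in the E16 list. Progenitor and Notch genes gave 13 of 20 at E16 (65.0%), among them Sox1 (28.0), Sox11 (23.2) and Hes5 (8.67). At P3 they gave 2 (10.0%), Notch2 and Sox4, again near the 6.15% of all genes for a list of this size.

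Ubiquitous genes were also occupied at E16, with 10 of 16 against 0 at P3. Gapdh had 4 summits with a best fold enrichment of 27.1, Tubb5 24.3, Hsp90ab1 21.2, Eef1a1 18.6 and Actb 15.1. Their share of 62.5% is above that of the GABAergic factors, 50.0%, and the part of this signal in the lineage counts at E16 was not tested. Survival and apoptosis genes gave 4 of 16 at E16 (Bax, Bcl2l1, Akt1 and Trp53) and 0 at P3, counts near the 17.2% and 6.15% of all genes for a list of this size.

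Of 26 migration and guidance genes, 8 were occupied at each age, or 30.8%, beside 17.2% of all genes at E16 and 6.15% at P3. The gene occupied at both ages was Dab1, an adaptor of reelin signalling, 1 of the 8 P3 genes, where 28.9% of all P3 genes were occupied at both ages. At E16 alone they were Slit1, Nrp1, Nrp2, Sema3f, Plxna2, Epha4 (17 summits, best fold enrichment 18.8) and Efnb3. At P3 alone they were Erbb4, the neuregulin receptor of migrating interneurons (4 summits, best 9.15), its ligand gene Nrg1 (3, best 8.12), Robo1 (6.50) and Robo2 (10.3), receptors for Slit proteins, Sema3a, Epha5 and Unc5d (8.30). The 7 genes occupied at P3 alone are between 363 and 1560 kb long.

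Synaptic adhesion and scaffold genes gave 12 of 20 at E16 and 6 at P3. Nrxn3, Ptprd and Ptprs were occupied at both ages, where 28.9% of all P3 genes were. E16 alone were Nrxn2 (36.3), Shank1 (20.4), Shank3 (14.0), Nlgn2 (11.9) and 5 more, and those at P3 alone included Dlg2 (4.93) and Gphn, the gene of the inhibitory synapse scaffold gephyrin (3.79). Transmitter receptor genes gave 4 of 20 at E16, near the 17.2% of all genes, and 5 at P3, with Grik2 at both, in a list with a median gene length of 298 kb. Activity-dependent genes gave 6 of 16 (37.5%) and 3 (18.8%), beside 17.2% and 6.15% of all genes. Mef2c was occupied at both ages, and Mef2a and Bdnf at P3 alone. Neurodevelopmental regulators gave 13 of 20 and 7, and 6 genes were occupied at both ages: Auts2, Tcf4, Arid1b, Chd7, Nfia and Nfib. Auts2 had the highest P3 value of the listed genes, 14.6, in a P3-only region at chr5:132009126-132009809.

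Cxcl14, the chemokine gene in the series title, had no summit within 10 kb at either age. The nearest was 57.5 kb away at E16, in a region nearest Neurog1, with a fold enrichment of 3.92, and 305.5 kb away at P3, near Tgfbi. Of the other chemokine axis genes, Cxcr4, the receptor for Cxcl12, had a P3 summit 0.820 kb outside the gene (4.12), and Cxcl12 and Ackr3 had none. Of 5 lists of 8 marker genes each, for glia of 3 kinds, vessel cells, and liver with muscle, at most 1 gene a list was occupied at either age: Sox10, Sox9, Aif1 and Ckm at E16, and Sox9 and Cdh5 at P3. A list with 1 such gene stands at 12.5%, beside 17.2% of all genes at E16 and 6.15% at P3. Counts this small are near those shares and do not show an absence at these markers.

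**Figure D4:**
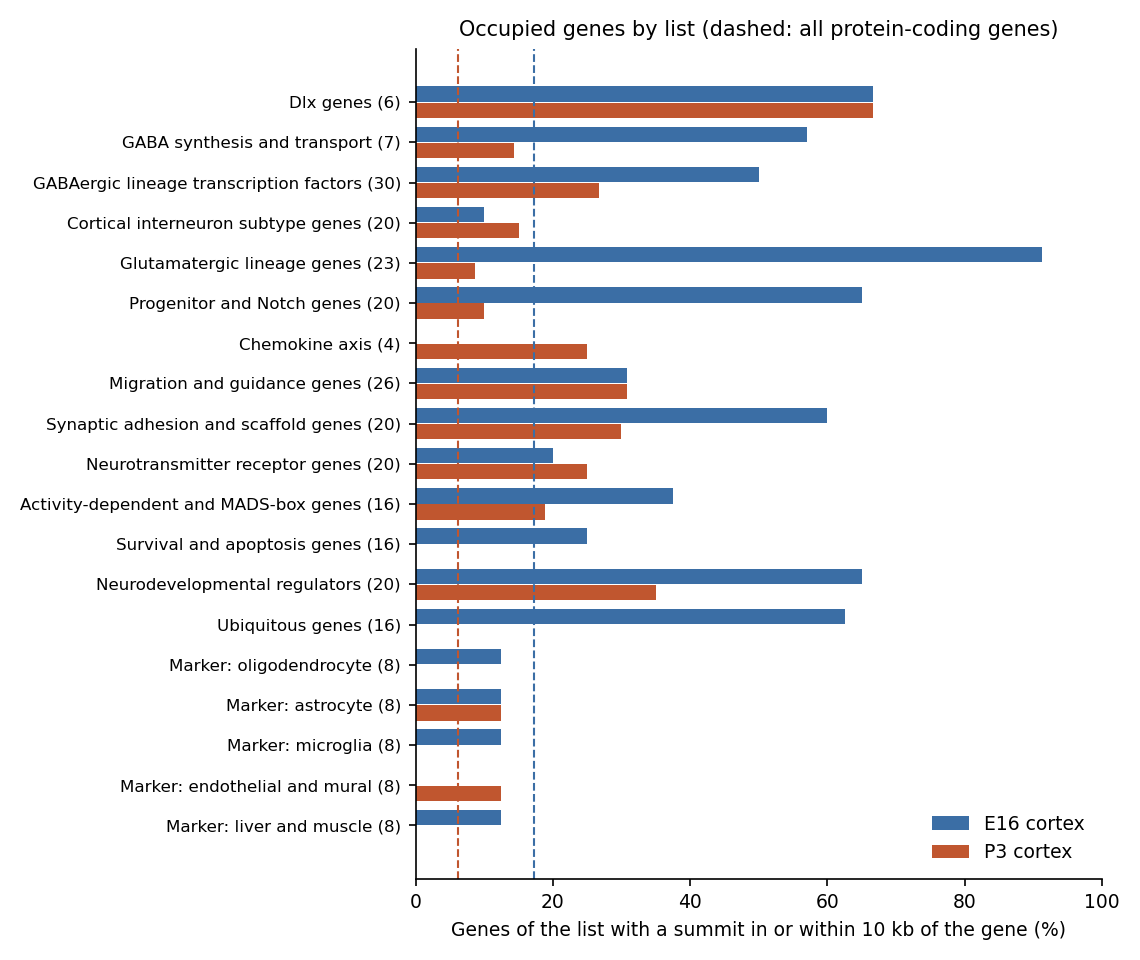
Share of the genes of each list with a summit in the gene or within 10 kb, in percent, at E16 (blue) and P3 (orange), with the number of genes in brackets and dashed lines at the share of all protein-coding genes, 17.2% and 6.15%. Glutamatergic genes reach 91.3% at E16 and 8.70% at P3, and the Dlx genes 66.7% at both.

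Of 1005 microRNA hairpins in the RefSeq table, 63 (6.27%) overlapped an E16-only region, 2 a kept E16 region, 2 a P3-only region (0.199%) and 0 a kept P3 region. The E16 list covers 5872 kb against 951 kb at P3, so these counts are a description of which hairpins were covered and not a comparison of the ages. All 3 genes of miR-9, a microRNA of neural progenitors, were in E16 regions: Mir9-3 with a fold enrichment of 63.0 (chr7:79501587-79529213), Mir9-1 with 24.8 (chr3:88208917-88231922) and Mir9-2 with 23.2 (chr13:83734725-83743105, kept). These are values at region summits and not at the hairpins. The Mir9-3 hairpin lies at chr7:79505264-79505353, and the summit of its region, which is 27627 bp wide, at 79515646. Mir128-2, whose product is abundant in neurons, was in a region of 24.8, Mir7-2 of 8.04, Mir137 of 7.61 and Mir7-1 of 6.58, all E16-only. The clusters of Mir17 to Mir92-1 and of Mir106b, Mir93 and Mir25, which act in proliferation, were in E16-only regions too. At P3 only Mir34c and Gm51288 were. The mature products of the brain microRNAs are printed with the seed, bases 2 to 8, in capitals. The 4 seeds differ, while both Mir7 genes and all 3 Mir9 genes give the same mature sequence.

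mmu-miR-9-5p: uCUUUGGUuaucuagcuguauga
mmu-miR-128-3p: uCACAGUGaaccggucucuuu
mmu-miR-137-3p: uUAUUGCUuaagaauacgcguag
mmu-miR-7a-5p: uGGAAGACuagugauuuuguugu

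Small non-coding RNA genes of other kinds near summits differed in their RefSeq label between the 2 ages. Genes labelled small nuclear RNA lay within 1 kb of 40 P3-only and 2 E16-only summits. Among those at P3 are Rnu3a, Rnu3b1, Rnu3b2, Rnu3b3, Rnu3b4 and Rnu7, whose products are not spliceosome RNAs, so the label mixes kinds. Genes labelled small nucleolar RNA, many of them inside host introns, lay within 1 kb of 53 E16-only and 3 P3-only summits. No kept summit was near either. With transfer and ribosomal RNA genes added, 59 E16-only and 52 P3-only summits lay within 1 kb, and the E16-only count was 32 without regions wider than 1 kb and 27 with lists of equal length. Such genes were beside 23 of the 100 strongest P3-only regions and 0 of the 100 strongest E16-only regions. Examples at P3 are Rnu11 (fold enrichment 13.8, 27th in the list), Rnu1a1 (12.2) and Rnu3b1 (14.3) in Tex14, and Rnu2-10 (13.6). These 4 regions were listed in the E16 basal ganglia and in the olfactory bulb at both ages as well, and not in the E16 cortex. Many of these genes exist in near-identical copies, between which short reads can be hard to place.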

How the data were processed

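The authors deposited 1 narrowPeak list of called regions per immunoprecipitated library. The submitters' processing notes name Trimmomatic, Bowtie2, SAMtools, MACS2 and build mm10. No version, threshold or control is given in the sources used here. The deposited fold enrichment is a ratio at the summit, and the deposited −log10 p and q-values are those of MACS2. The deposited score column was not used. Read length was 50 nt, per the labels. Regions were ranked by −log10 q within each list. Fold enrichments of both ages are printed side by side as each list's own values, and no fold or test between the ages was computed from them. Regions on Y, M and scaffolds (26 at E16, 23 at P3) were left out. The inputs were not analysed here, and results for some named genes are not reported here.

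Overlaps, distances and intervals were computed in Python 3.11.15 (pandas 2.3.3, scipy 1.17.1) and tested on simulated regions. Genes (49997), promoter windows and microRNAs came from RefSeq tables of GRCm38.p6. All 282 genes of the 19 lists matched. Members and lists were chosen with earlier results of these data known. Named genes are those at the 12 kept pairs of lowest summed rank, at the 12 strongest E16-only and P3-only regions, the 10 genes with most summits per class, the 10 genes occupied at both ages without a kept region of lowest summed rank, the Dlx genes, Cxcl14, list members and kept regions over a start. Alternatives changed the overlap, the q threshold, width, list length, flank and boundary.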

Additional observations from a re-analysis of the deposited data

How the results depend on the processing

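No paired analysis was possible because each age has 1 library. Each share was recomputed under other settings and called moved when it left its own counting interval; a count was called moved beyond 1.5 times. With summits within 200 bp in place of overlap, 3.69% of P3 and 1.24% of E16 regions were kept, and 38.2% of E16-only regions were listed in the basal ganglia. With lists of equal length the kept share of P3 regions was 1.94%, the basal ganglia share of E16-only regions 31.8%, the bulb share of P3-only regions 15.8% (14.2% as reported), the E16-only share within 1 kb of a boundary 24.1%, the E16-only 3′ share 66.4%, the E16-only CCAAT share 22.6%, the E16-only summits near small RNA genes 27, and genes at both ages 233. The basal ganglia share was 56.9% with a 50% overlap, 57.0% at −log10 q of at least 5 and 35.3% without regions over 1 kb, where E16-only summits near small RNA genes fell to 32. Without regions at small RNA genes the bulb share of P3-only regions was 12.6%. Genes at both ages were 196 with the body alone and 1155 with 50 kb. Within 2 kb of a boundary lay 36.9% of E16-only and 23.8% of P3-only summits, and 16.5% and 12.6% within 1 kb of a protein-coding gene's boundary. The cause was not tested. The settings for position, CCAAT, small RNA genes and lists were chosen after seeing the data. Without read depths, the size of a region's signal below the calling limit cannot be given.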
